A study of Homo sapiens with 6 samples.

Results

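Mucins are heavily glycosylated proteins of epithelial surfaces, and 8 mucin genes are described here across 2 lung cancer cell lines. They were taken by gene symbol from the deposited table of gene expression values, with pseudogenes left out, and make up 8 of its 6641 genes. One of them, MUC5B, encodes a secreted, gel-forming mucin, and the other 7 (MUC1, MUC4, MUC12, MUC13, MUC16, MUC20 and MUC21) encode mucins that are anchored in the cell membrane. The table also lists MUC5AC, a further secreted mucin, which is not among these 8 and is described beside MUC5B. The samples were 3 libraries labelled HCC827_Er and 3 libraries labelled HCC827. HCC827 is an established human lung adenocarcinoma line that carries an activated EGFR, a growth factor receptor kinase, and both lines share that origin by their names. HCC827_Er is the resistant counterpart in a series that asks how histone crotonylation bears on resistance to EGFR inhibitors. The labels give neither the agent and time of selection nor whether the line is 1 clone, and they do not record whether separate cultures were used for the 3 libraries. The p-values therefore measure only the spread between these libraries.

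A mucin carries long stretches rich in serine, threonine and proline, often built of tandem repeats, and the serines and threonines bear O-linked sugar chains. Secreted mucins of the airway are linked through cysteine-rich ends into polymers that form mucus, and MUC5B is a main mucin of airway glands and small-airway secretory cells. Membrane-bound mucins stand on the cell surface with a short tail inside the cell. Several of them, MUC1 and MUC4 among them, are known to associate with receptors of the EGFR family.

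The repeats are shown first because they define these genes and because short reads from them can be placed in more than one position. Coding sequences were read from the longest coding transcript of each gene in GENCODE 29 on GRCh38. Tandem repeats were searched for as similar copies of a fixed length that directly follow each other, so repeats of other layouts are missed. The lines below give, 5′ to 3′, the commonest unit for the 4 genes with the largest share of coding sequence found by this search. Codons for serine and threonine are in capitals.
MUC1 repeat unit: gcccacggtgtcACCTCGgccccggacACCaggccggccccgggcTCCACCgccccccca
MUC4 repeat unit: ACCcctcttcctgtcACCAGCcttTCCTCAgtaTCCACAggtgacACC
MUC20 repeat unit: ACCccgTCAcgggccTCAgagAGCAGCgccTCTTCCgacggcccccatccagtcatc
MUC21 repeat unit: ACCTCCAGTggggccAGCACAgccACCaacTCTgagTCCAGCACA
The MUC1 unit of 60 bases stood in 19 exact copies, the MUC4 unit of 48 bases in 14, the MUC20 unit of 57 bases in 10 and the MUC21 unit of 45 bases in 5. Repeats found by this search covered 69.4% of the coding sequence of MUC1, 59.7% of MUC4, 32.7% of MUC20 and 73.8% of MUC21. They covered 5.31% of MUC12 and 3.29% of MUC5B.

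Codons for serine and threonine made up between 24.02% (MUC13) and 49.3% (MUC21) of the coding codons of the 8 genes. Codons for cysteine made up 4.76% in the secreted MUC5B and 3.91% in MUC13, and less than 0.9% in each of the other membrane-bound mucins, the highest being 0.850% in MUC4. The coding sequences ran over a wide range of lengths, 1536 bases in MUC13, 1698 in MUC21, 2169 in MUC20, 3786 in MUC1, 16236 in MUC4, 16434 in MUC12, 17286 in MUC5B and 43521 in MUC16. The share of 50-base stretches that recurred within the same transcript was highest in MUC12 (61.5%) and MUC1 (42.4%). This measure thus ranks the genes otherwise than the search for tandem repeats. It was 29.2% in MUC5B, 28.3% in MUC4, 22.8% in MUC20, 5.27% in MUC21, 1.07% in MUC16 and 0% in MUC13. Stretches shared with other genes were a matter of MUC20, at 70.3% of its transcript, against 2.30% in MUC5B and 0% in the other 6. Of the MUC20 transcript, 54.3% was shared with the pseudogene MUC20P1 and 31.4% with the overlapping noncoding gene MUC20-OT1, so the split of reads between these genes is uncertain. Annotated genes also overlap MUC1 and MUC5B on the same strand, and antisense genes overlap MUC5B (MUC5B-AS1) and MUC12. None of these was analysed here, and since the use of strand in counting is not stated, reads of the overlapping stretches cannot be told apart.

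The deposited values were FPKM, that is, fragments divided by the length of the transcript and by the library's mapped total, with no counts, and the depth of the libraries was unknown. FPKM is scaled by length, so levels of different genes can be set side by side, although the sources used here do not give the transcript lengths behind them. Library sums over the 6641 genes lay between 184633 and 190415 FPKM in HCC827_Er and between 222927 and 224211 FPKM in HCC827. The sums thus differed by line. Differences are HCC827_Er minus HCC827 on the log2(FPKM + 1) scale, on which changes of low genes come out too small. A gene was called at a limma adjusted p under 0.05 with a log2 difference of at least 1, that is 2-fold. By this rule 24.7% of the 5276 tested genes were called higher and 19.7% lower in HCC827_Er, 44.4% in all. Since limma gave 98.3% of them an adjusted p under 0.05, and 97.1% showed no overlap between the lines, neither property alone set a mucin apart from the other listed genes. Rescaling the libraries by median ratios or to a common sum moved the median tested gene by -0.30 and 0.21 on the log2 scale. The numbers called higher and lower, 1304 and 1041 as deposited, were then 896 and 1657 with median ratios and 1825 and 794 with a common sum.

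Of the 8 mucin genes, 6 were called higher in HCC827_Er, MUC12 was called lower and MUC13 was not called. The shares over all tested genes were 24.7% called higher, 19.7% called lower and 44.4% called in either direction. All 8 passed the minimum of 1 FPKM in 3 libraries, but MUC5B, MUC4 and MUC21 reached it in HCC827_Er alone and MUC12 in HCC827 alone. These 4 genes therefore had to differ to be tested. MUC20 reached the minimum in all 3 HCC827_Er libraries but in only 1 HCC827 library, so it too passed through HCC827_Er. The count of called mucins is a description. The summed FPKM of the 8 genes was 361, 323 and 313 in the HCC827_Er libraries, against 74.3, 73.1 and 75.9 in the HCC827 libraries. In bulk RNA, a change in the number of cells that express a gene and a change in the RNA per cell cannot be told apart.

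**Figure D1:**
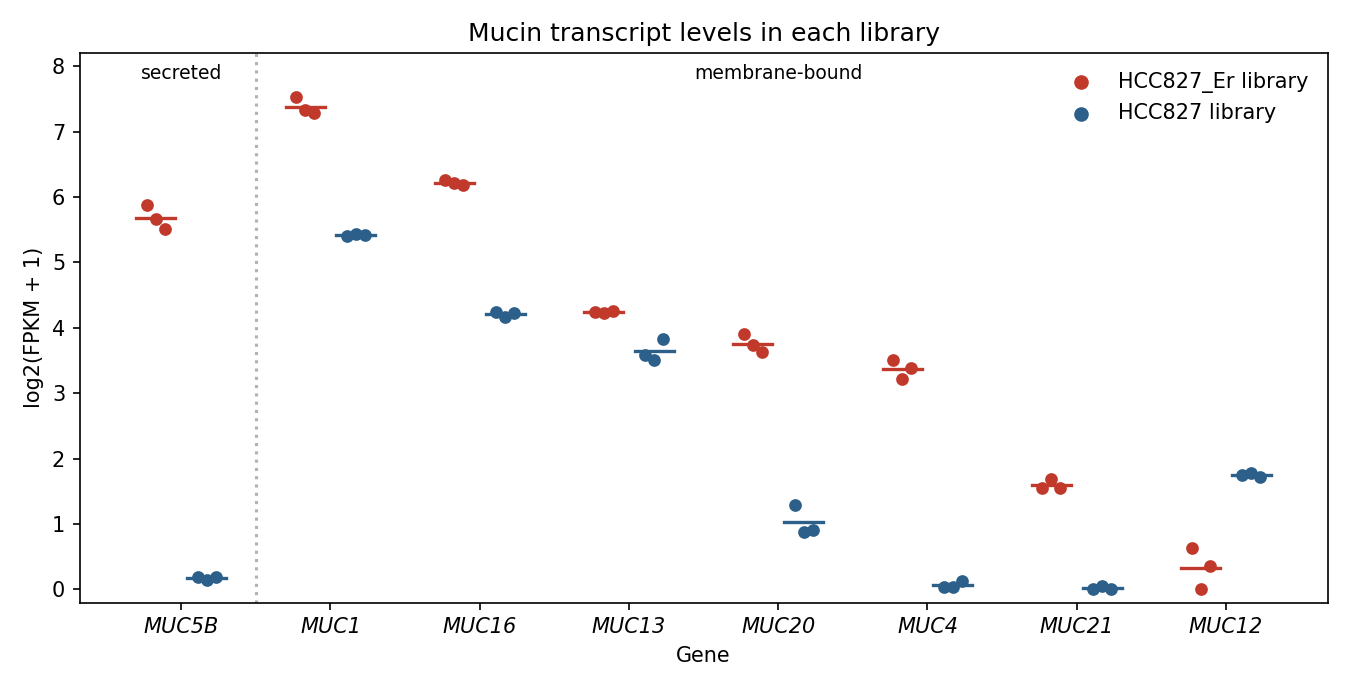
Levels of the 8 mucin genes as log2(FPKM + 1) on the vertical axis, with 1 point per library and a bar at the mean of 3 libraries, HCC827_Er left of HCC827 for each gene. The lines do not overlap for any of the 8 genes, as for 97.1% of all tested genes. MUC12 is the 1 gene with the lower points in HCC827_Er.

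The secreted mucin MUC5B (ENSG00000117983, chromosome 11, 1223066 to 1262172, plus strand) showed the largest difference of the 8. It stood at 57.8, 49.7 and 44.7 FPKM in the HCC827_Er libraries, against 0.14, 0.11 and 0.14 FPKM in the HCC827 libraries. Every HCC827_Er library was far above every HCC827 library. The difference was 5.51 on the log2 scale (SE 0.12, limma adjusted p = 2.04e-09), which placed it at rank 9 of the 5276 tested genes in the direction of a rise. The gene for the other airway gel-forming mucin in the table, MUC5AC, lies next to MUC5B at a distance of 21.9 kb. MUC5AC stood at 0.44, 0.36 and 0.34 FPKM in HCC827_Er, against 0.01, 0.02 and 0 FPKM in HCC827, below the minimum for the test in all 6 libraries. The neighbour on the other side, BRSK2, which encodes a protein kinase, fell to 2.48 ± 0.609 FPKM in HCC827_Er, against 6.87 ± 1.43 FPKM in HCC827 (SD, n = 3).

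MUC1 and MUC16 were the most abundant membrane-bound mucins in both lines. MUC1 (ENSG00000185499, chromosome 1, 155185824 to 155192916, minus strand) encodes a mucin that is cleaved into an outer and a membrane-spanning subunit. It stood at 183, 160.1 and 155 FPKM in the HCC827_Er libraries, against 41.4, 42.3 and 41.6 FPKM in the HCC827 libraries, with no overlap. Its mean was 3.98 times higher in HCC827_Er (log2 difference 1.96, SE 0.069, limma adjusted p = 2.45e-08). MUC16 (ENSG00000181143, chromosome 19, 8848844 to 8981342, minus strand) encodes the very large mucin that carries the tumour antigen CA125. It stood at 75.7, 73.1 and 71.9 FPKM in HCC827_Er, against 17.85, 16.96 and 17.80 FPKM in HCC827. The libraries of each line lay close together, and the mean was 4.19 times higher in HCC827_Er (log2 difference 2.01, SE 0.060, adjusted p = 1.10e-08).

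MUC4 and MUC20 lie beside each other on chromosome 3 with their 3′ ends 5.64 kb apart, and both rose. MUC4 (ENSG00000145113, 195746765 to 195812277, minus strand) encodes a mucin with EGF-like domains that is known to bind ERBB2. It stood at 10.4, 8.27 and 9.47 FPKM in HCC827_Er, against 0.03, 0.03 and 0.10 FPKM in HCC827 (log2 difference 3.30, SE 0.12, limma adjusted p = 2.70e-08). Its HCC827 libraries were all near 0. MUC20 (ENSG00000176945, 195720882 to 195741123, plus strand) encodes a small membrane-bound mucin that is known to bind the receptor kinase MET. It stood at 14.01, 12.35 and 11.4 FPKM in HCC827_Er, against 1.46, 0.83 and 0.87 FPKM in HCC827 (log2 difference 2.74, SE 0.15, adjusted p = 3.08e-07). The pseudogene MUC20P1, 100.6 kb from MUC20, was also higher, at 3.76, 4.59 and 3.63 FPKM in HCC827_Er, against 0.23, 0.51 and 0.55 FPKM in HCC827. With the values of the gene and the pseudogene summed, a choice made after seeing the data, the log2 difference was 2.82 (SE 0.11, adjusted p = 5.36e-08).

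MUC21 and MUC12 were the least abundant members in HCC827_Er. MUC21 (ENSG00000204544, chromosome 6, 30983718 to 30989903, plus strand) encodes epiglycanin, and stood at 1.92, 2.23 and 1.92 FPKM in HCC827_Er, against 0, 0.04 and 0 FPKM in HCC827. It was listed at 0 in 2 HCC827 libraries, so no fold is given, and its log2 difference was 1.58 (SE 0.097, limma adjusted p = 7.12e-07). MUC12 (ENSG00000205277, chromosome 7, 100969623 to 101018949, plus strand) belongs to a group of mucin genes known from intestinal epithelium. It stood at 0.55, 0 and 0.28 FPKM in HCC827_Er, against 2.38, 2.43 and 2.28 FPKM in HCC827 (log2 difference -1.42, SE 0.16, adjusted p = 2.83e-05). It was the only member that fell, and 1 HCC827_Er library was listed at 0. With a pseudocount of 5 in place of 1, neither MUC21 (0.49) nor MUC12 (-0.48) reached a log2 difference of 1.

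MUC13 (ENSG00000173702, chromosome 3, 124905442 to 124953819, minus strand), a membrane-bound mucin of gut and airway epithelium, had the smallest difference. It stood at 18.0, 17.7 and 18.2 FPKM in HCC827_Er, against 11.03, 10.35 and 13.2 FPKM in HCC827. The lines did not overlap, and the mean was 1.56 times higher in HCC827_Er. Its log2 difference of 0.60 (SE 0.098, 95% interval 0.38 to 0.83, limma adjusted p = 3.20e-04) lay under the 2-fold minimum, and it was 0.28 with median-ratio rescaling and 0.84 with a common sum.

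**Figure D2:**
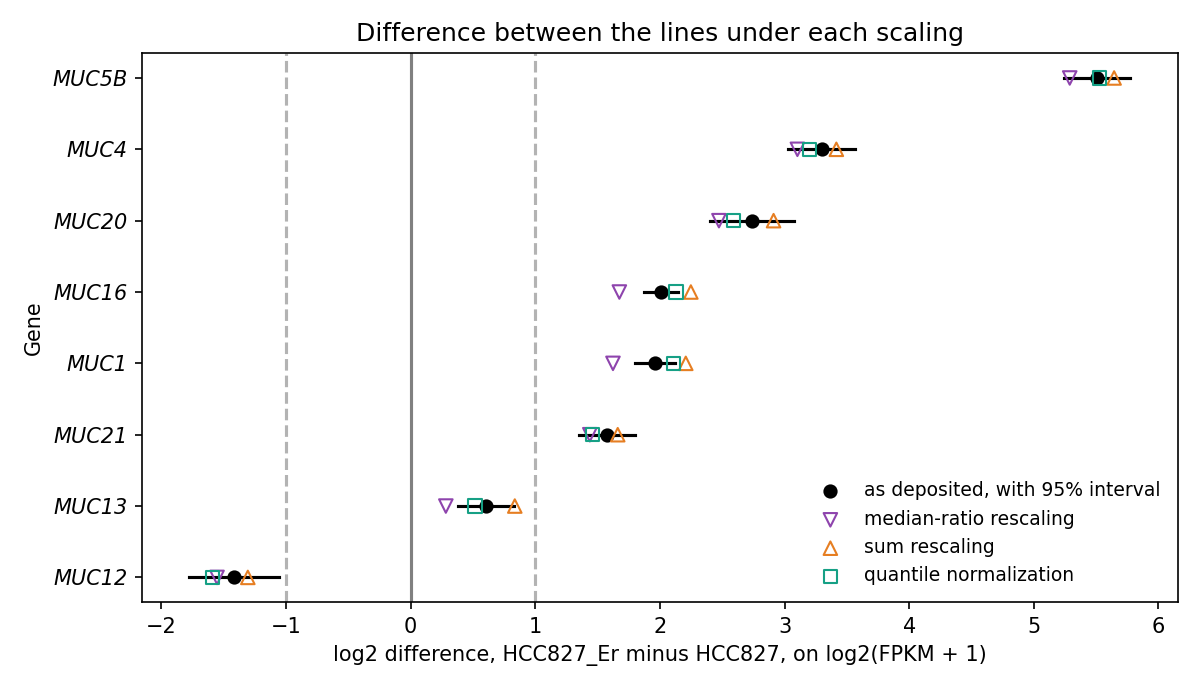
Log2 difference of each mucin gene, HCC827_Er minus HCC827, with values as deposited (black points, with their 95% intervals from limma) and after 3 rescalings of the libraries (open symbols); dashed lines mark a 2-fold difference. MUC5B stands at 5.51 and MUC12 at -1.42, and no rescaling moves a gene across a dashed line.

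The order of the levels differed between the lines, with MUC12 and MUC5B furthest apart in rank. In HCC827_Er the means ran from MUC1 through MUC16, MUC5B, MUC13, MUC20, MUC4 and MUC21 to MUC12, and no 2 neighbours in this order overlapped in their libraries. In HCC827 they ran from MUC1 through MUC16, MUC13, MUC12, MUC20, MUC5B and MUC4 to MUC21, where MUC4 and MUC21 overlapped and the other neighbours did not. MUC12 was thus at rank 8 in HCC827_Er and at rank 4 in HCC827, and MUC5B at rank 3 in HCC827_Er and at rank 6 in HCC827.

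Secreted and membrane-bound mucins were compared within each library, where the scaling of the library has no effect on shares. MUC5B made up 15.98%, 15.37% and 14.3% of the summed FPKM of the 8 genes in the HCC827_Er libraries, against 0.188%, 0.151% and 0.184% in the HCC827 libraries. The shares did not overlap, and an exact two-sided permutation test over the 6 libraries gave p = 0.10, the smallest value that 3 against 3 libraries allow. On the log scale MUC5B stood 1.84 above the mean of the 7 membrane-bound mucins in HCC827_Er and had a value of -2.13, below that mean, in HCC827 (difference 3.97, exact permutation p = 0.10). The size of this difference depends on the pseudocount, being 5.59 with 0.1 and 2.41 with 5. MUC5B reached the minimum of 1 FPKM in HCC827_Er alone, so it had to be higher there to be tested. This limits both permutation p-values, which are given as a description and not as support for a difference. The membrane-bound mucins alone summed to 282 ± 19.1 FPKM in HCC827_Er, against 74.3 ± 1.41 FPKM in HCC827 (SD, n = 3). As only 1 member is secreted, the contrast is one of MUC5B with the rest and not of 2 classes of genes.

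Shares among the membrane-bound mucins were taken over the sum of those 7 genes alone, so that MUC5B does not enter them. MUC1 held 58.9% ± 1.28 of that sum in HCC827_Er and 56.2% ± 1.63 in HCC827, and its libraries overlapped between the lines. MUC16 held 26.1% ± 1.05 in HCC827_Er and 23.6% ± 0.426 in HCC827. MUC13 held 6.38% ± 0.432 in HCC827_Er, against 15.5% ± 1.69 in HCC827, and MUC12 held 0.0952% ± 0.0909 in HCC827_Er, against 3.18% ± 0.162 in HCC827. MUC20 held 4.46% ± 0.188 in HCC827_Er, against 1.42% ± 0.477 in HCC827, and MUC4 held 3.33% ± 0.269 in HCC827_Er, against 0.0712% ± 0.0526 in HCC827 (all SD, n = 3). The shares of MUC4, MUC12, MUC13, MUC16, MUC20 and MUC21 did not overlap between the lines, and no test was run on them. MUC1 and MUC16 together made up the larger part of the membrane-bound sum in every library.

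**Figure D3:**
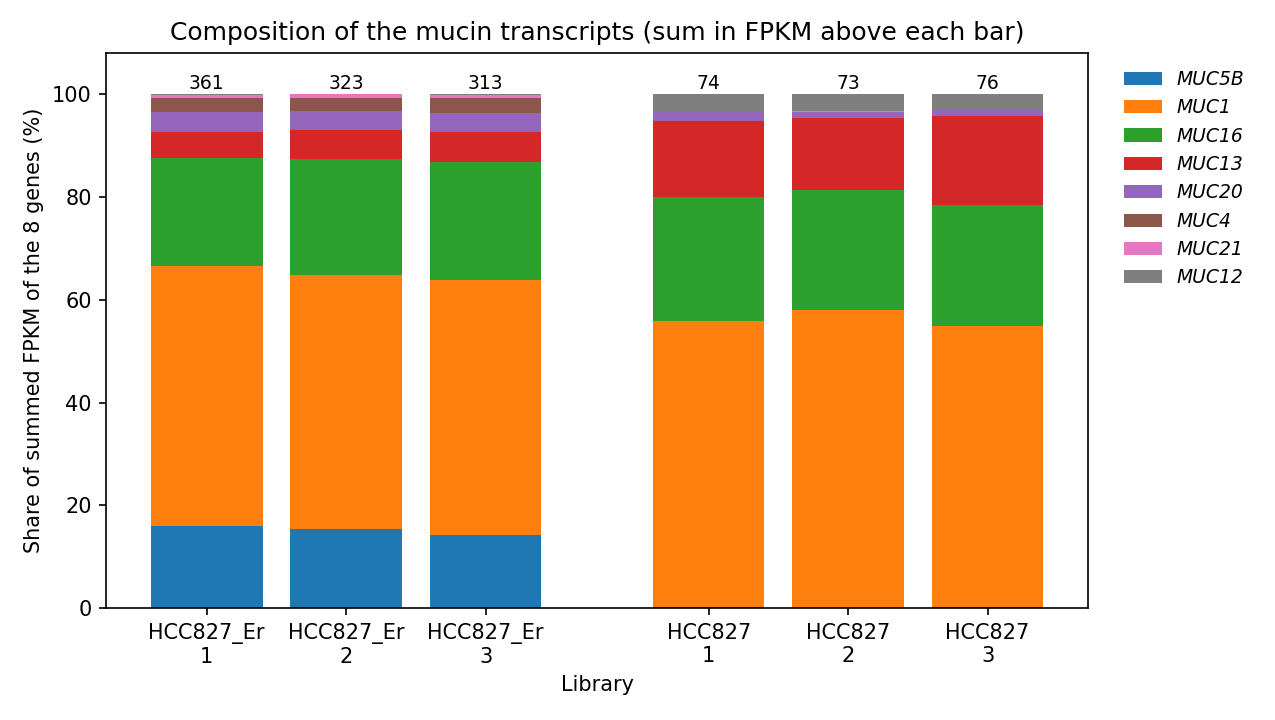
Share of each mucin gene in the summed FPKM of the 8 genes (vertical axis, percent), with 1 bar per library, HCC827_Er on the left, and the sum in FPKM above each bar. MUC5B takes between 14.3% and 15.98% of each HCC827_Er bar and is too thin to see in the HCC827 bars, where it holds less than 0.2%.

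The first HCC827_Er library had the highest value of its line for 6 of the 8 genes. Over all tested genes the median log2 deviation of that library from the others of its line was -0.0021. Without it 6 mucins were again called higher and 1 lower, and the share of MUC5B differed by 14.7 percentage points between the lines, against 15.04 with all libraries.

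Genes with the most similar levels over the 6 libraries were found by Euclidean distance on the log2 scale, as a description of likeness in these libraries. The nearest to MUC1 was SCNN1A, a subunit of the epithelial sodium channel, at 186 ± 12.7 FPKM in HCC827_Er and 42.5 ± 1.56 FPKM in HCC827 (distance 0.29). The nearest to MUC16 were TXNIP (0.20), which encodes a thioredoxin-binding protein, and PIGR (0.25), the receptor that carries antibodies across epithelia. PIGR stood at 78.2 ± 1.42 FPKM in HCC827_Er and 16.2 ± 0.685 FPKM in HCC827. The nearest to MUC4 were SYT8 (0.25) and the keratin gene KRT4 (0.33), and to MUC20 the kinase gene MAPK13 (0.42) and CEACAM1 (0.50). MUC5B had the keratin pseudogene KRT16P1 (0.22) and the surfactant gene SFTPB (0.91) as its nearest genes, and MUC21 had VSX1 (0.11) and EYA1 (0.16). MUC12 had the noncoding gene SNX10-AS1 (0.25) as its nearest gene.

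Genes next to the mucins on the chromosome moved in both directions. SFTA2, a surfactant-associated gene 28.1 kb from MUC21, rose to 350 ± 38.3 FPKM in HCC827_Er, against 3.53 ± 2.04 FPKM in HCC827. ADAMTS10, a protease gene 238 kb from MUC16, fell to 2.25 ± 0.669 FPKM in HCC827_Er, against 22.4 ± 1.38 FPKM in HCC827 (all SD, n = 3). Beside MUC13, KALRN rose (log2 difference 2.42, SE 0.24, limma adjusted p = 1.40e-05) and HEG1 fell (-1.42, SE 0.10, adjusted p = 1.99e-06). The listed neighbour of MUC1 at 2.67 kb, THBS3, was not called, at 6.42 ± 0.525 FPKM in HCC827_Er and 11.5 ± 1.40 FPKM in HCC827. UFSP1 beside MUC12, ZNF699 beside MUC16 and PSORS1C1 beside MUC21 were not called either, and TRIM46 beside MUC1 was below the minimum for the test.

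Promoter windows from RefSeq on GRCh38.p14, 250 bases before to 50 bases after an annotated start, were held for 5 of the 8 genes. They are printed for MUC1, MUC4 and MUC16, which rose, and for MUC12, which fell, so that the members that moved in opposite directions can be compared. MUC1 and MUC16 each had a further window that is not printed. The text runs 5′ to 3′ on the strand of the gene, and capitals mark matches to 5 motifs on either strand. The motifs were the GC box GGGCGG, the E-box CACCTG that ZEB and SNAI repressors bind, the FOXA motif TGTTTAC, the NKX2 motif CAAGTG and the TATA box TATAAA. The motifs CACCTG and CAAGTG are both forms of the E-box.
MUC1, chr1:155192866-155193165, minus strand: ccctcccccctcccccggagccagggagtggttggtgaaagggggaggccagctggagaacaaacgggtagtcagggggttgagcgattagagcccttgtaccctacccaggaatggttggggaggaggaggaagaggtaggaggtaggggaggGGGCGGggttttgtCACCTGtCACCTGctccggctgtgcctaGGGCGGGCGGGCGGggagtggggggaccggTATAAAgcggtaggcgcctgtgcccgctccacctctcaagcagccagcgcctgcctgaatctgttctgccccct
MUC4, chr3:195811880-195812179, minus strand: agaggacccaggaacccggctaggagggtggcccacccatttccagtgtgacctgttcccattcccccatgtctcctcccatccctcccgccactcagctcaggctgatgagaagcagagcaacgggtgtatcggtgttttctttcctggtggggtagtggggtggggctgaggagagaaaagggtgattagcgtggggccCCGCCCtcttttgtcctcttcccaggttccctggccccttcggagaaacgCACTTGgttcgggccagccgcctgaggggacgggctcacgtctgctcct
MUC16, chr19:9065702-9066001, minus strand: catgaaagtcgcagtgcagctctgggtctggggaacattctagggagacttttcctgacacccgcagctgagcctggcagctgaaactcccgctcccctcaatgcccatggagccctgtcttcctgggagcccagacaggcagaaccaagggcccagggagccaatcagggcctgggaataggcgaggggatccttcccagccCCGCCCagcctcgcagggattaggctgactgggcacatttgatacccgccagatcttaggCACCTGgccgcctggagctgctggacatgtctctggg
MUC12, chr7:100969315-100969614, plus strand: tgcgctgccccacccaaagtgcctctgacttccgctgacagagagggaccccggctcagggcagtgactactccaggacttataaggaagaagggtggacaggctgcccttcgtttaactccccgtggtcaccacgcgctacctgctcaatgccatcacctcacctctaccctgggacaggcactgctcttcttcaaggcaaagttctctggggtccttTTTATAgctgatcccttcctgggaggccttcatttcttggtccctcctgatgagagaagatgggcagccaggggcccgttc
The MUC1 window held 4 GC boxes, of which 3 overlap in a row, 2 copies of CACCTG and a TATAAA that begins 24 bases before the start. The printed windows of MUC4 and MUC16 held a GC box at 49 and 47 bases before the start, with CAAGTG in MUC4 and CACCTG in MUC16 within the bases after it. The further MUC16 window, from 9010360 to 9010659, held no GC box. Its only match was CACCTG on the opposite strand, 159 bases before its start. The MUC12 window held TATAAA on the opposite strand alone. The MUC13 window held none of the 5 motifs. Of all 35116 promoter windows, 45.0% held GGGCGG, 20.6% CACCTG, 3.42% TGTTTAC, 11.5% CAAGTG and 11.5% TATAAA on either strand. A match describes the letters and is no evidence of binding, and the printed MUC16 and MUC12 windows lie outside the spans that GENCODE 29 gives to these genes. The MUC12 window ends just before the gene starts at 100969623. The printed MUC16 window lies far from the 5′ end of the gene at 8981342, and the further MUC16 window lies nearer to it.

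Other genes were taken from 7 lists of genes that act on mucins or are made with them and 1 list of further genes named as mucins, which together held 72 tested genes. Of these 31 were called higher and 15 lower in HCC827_Er, against 24.7% and 19.7% of all tested genes, and their median log2 difference was 0.82, against 0.43 over all tested genes. With median-ratio rescaling the counts were 24 higher and 23 lower, and with a common sum they were 37 higher and 12 lower. Some of these genes passed the minimum through 1 line alone, such as AGR2, B3GNT6 and SOX2 in HCC827_Er and STX11, ZEB2 and ST3GAL6 in HCC827. Such genes had to differ to be tested, which limits their calls and adjusted p-values. With a minimum of 1 FPKM in all 6 libraries the counts were 18 higher and 10 lower. The table holds mostly genes that differ between the lines, so these counts describe the listed genes only.

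**Figure D4:**
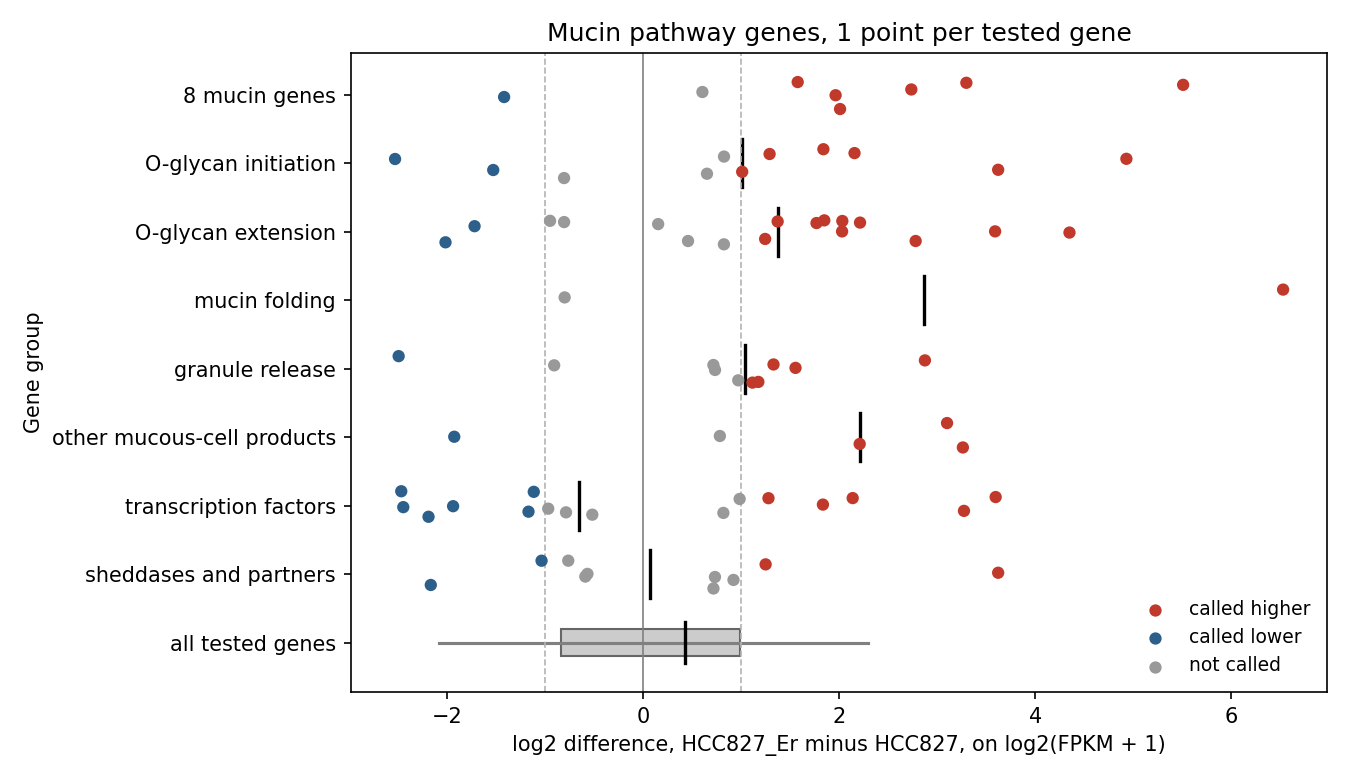
Log2 difference (HCC827_Er minus HCC827) of each tested gene of the mucin family and of 7 groups of mucin pathway genes, coloured by call, with a black bar at the median of each pathway group. The lowest row shows all tested genes, with a box over the middle 50%, a line from the 5th to the 95th percentile and the median at 0.43; O-glycan extension has its median at 1.37 and transcription factors at -0.65.

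The enzymes that start O-linked chains are the polypeptide N-acetylgalactosaminyltransferases, and 6 of 11 tested members were called higher and 2 lower (median 1.01). These were 54.5% and 18.2% of the group, against 24.7% and 19.7% of all tested genes. With median-ratio rescaling 4 were called higher and 3 lower. GALNT3 rose to 44.2 ± 6.33 FPKM in HCC827_Er, against 0.487 ± 0.254 FPKM in HCC827 (log2 difference 4.93, SE 0.16, limma adjusted p = 1.37e-08). GALNT6 rose to 24.9 ± 3.27 FPKM in HCC827_Er, against 1.11 ± 0.250 FPKM in HCC827, and GALNT5 to 6.39 ± 0.255 FPKM in HCC827_Er, against 0.670 ± 0.257 FPKM in HCC827. GALNT9 fell to 1.46 ± 0.269 FPKM in HCC827_Er, against 13.2 ± 0.277 FPKM in HCC827 (SD, n = 3). The family thus moved in both directions, with the enzymes at the extremes of the group on opposite sides.

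Of the enzymes that extend or cap the chains, 10 of 17 tested members were called higher and 2 lower (median 1.37). These were 58.8% and 11.8% of the group, against 24.7% and 19.7% of all tested genes. With median-ratio rescaling 9 were called higher and 4 lower. B3GNT6, which makes the core 3 structure, stood at 11.1 ± 0.979 FPKM in HCC827_Er and was listed at 0 in all 3 HCC827 libraries. ST6GALNAC1, which makes the sialyl-Tn antigen, stood at 5.93 ± 1.23 FPKM in HCC827_Er and was likewise listed at 0 in all HCC827 libraries. B4GALNT3, which adds N-acetylgalactosamine to chain ends, rose to 23.0 ± 0.646 FPKM in HCC827_Er, against 0.177 ± 0.0252 FPKM in HCC827. ST6GALNAC5, a sialyltransferase known mainly for gangliosides, rose to 5.26 ± 1.49 FPKM in HCC827_Er, against 0.330 ± 0.121 FPKM in HCC827. ST3GAL2 and ST3GAL6, both sialyltransferases, were the members called lower and are named after their values were seen. ST3GAL2 stood at 7.10, 6.13 and 2.67 FPKM in HCC827_Er, against 25.60, 21.99 and 22.04 FPKM in HCC827.

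Of the folding genes AGR2 and DNAJB9 were tested. AGR2, a disulfide isomerase that mice need to make the intestinal mucin Muc2, rose to 113, 96.6 and 111 FPKM in HCC827_Er, against 0, 0.13 and 0.40 FPKM in HCC827 (log2 difference 6.53, SE 0.14, limma adjusted p = 1.91e-09). DNAJB9, a chaperone of the endoplasmic reticulum, was not called, at 6.39 FPKM in HCC827_Er and 11.8 FPKM in HCC827 on average. ERN2, the stress sensor of mucous epithelia, stood at 0.49, 0.25 and 0.25 FPKM in HCC827_Er, below the minimum for the test, and was listed at 0 in all 3 HCC827 libraries.

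Of 10 tested genes of granule docking and release, 5 were called higher and 1 lower (median 1.04). These were 50% and 10% of the group, against 24.7% and 19.7% of all tested genes. With median-ratio rescaling 3 were called higher and 2 lower. SYT7, a calcium sensor of exocytosis, rose to 10.6 ± 0.945 FPKM in HCC827_Er, against 0.583 ± 0.210 FPKM in HCC827. The granule GTPase RAB27B rose to 7.13 ± 0.935 FPKM in HCC827_Er, against 1.76 ± 0.191 FPKM in HCC827, and its effector SYTL4 to 9.85 ± 0.681 FPKM in HCC827_Er, against 3.32 ± 0.306 FPKM in HCC827. STX11, a SNARE protein known from lymphocytes, fell to 0.517 ± 0.0289 FPKM in HCC827_Er, against 7.58 ± 0.817 FPKM in HCC827 (SD, n = 3).

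Other products of mucous and gland cells were tested for 5 genes, of which 3 were called higher and 1 lower (median 2.21). These were 60% and 20% of the group, against 24.7% and 19.7% of all tested genes. SLPI, a protease inhibitor of airway mucus, rose to 135 ± 7.54 FPKM in HCC827_Er, against 13.3 ± 2.14 FPKM in HCC827 (log2 difference 3.26, SE 0.11, limma adjusted p = 1.92e-08). WFDC2, a related secreted protein, rose to 28.5 ± 4.78 FPKM in HCC827_Er, against 2.43 ± 0.411 FPKM in HCC827, and PIGR rose as given above. SCGB3A2, a secretoglobin of airway cells, fell to 12.0 ± 3.42 FPKM in HCC827_Er, against 47.5 ± 2.13 FPKM in HCC827. The trefoil genes TFF1, TFF2 and TFF3 and the goblet cell gene CLCA1 were not analysed here.

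Transcription factors known to act on mucin genes or mucous cells changed in both directions, 5 of 16 tested genes being called higher and 6 lower (median -0.65). These were 31.25% and 37.5% of the group, against 24.7% and 19.7% of all tested genes. The counts were 4 and 8 with median-ratio rescaling, and 7 and 4 with a common sum. SOX2 rose to 13.3 ± 1.48 FPKM in HCC827_Er, against 0.180 ± 0.0600 FPKM in HCC827, and NKX2-1, the regulator of lung epithelium, to 65.7 ± 4.65 FPKM in HCC827_Er, against 5.93 ± 0.898 FPKM in HCC827. SPDEF, the regulator of goblet cell differentiation, FOXA1 and EHF were the other factors called higher and are named after their values were seen. SPDEF stood at 3.61, 3.85 and 3.77 FPKM in HCC827_Er, against 0, 0.14 and 0.10 FPKM in HCC827. The repressor ZEB2 fell to 0.590 ± 0.193 FPKM in HCC827_Er, against 7.77 ± 0.465 FPKM in HCC827.

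Of the sheddases and binding partners of membrane-bound mucins, 2 of 10 tested genes were called higher and 2 lower (median 0.073). These shares, 20% and 20%, lay near the 24.7% and 19.7% of all tested genes. The counts were 1 and 3 with median-ratio rescaling, and 3 and 1 with a common sum. CTNNB1, which encodes the beta-catenin that binds the tail of MUC1, stood at 202 ± 5.62 FPKM in HCC827_Er and 84.3 ± 2.98 FPKM in HCC827 (log2 difference 1.25, and 0.91, not called, with median-ratio rescaling). GALNT6, listed here too, was the other gene called higher. The protease gene MMP7 fell to 20.01 ± 1.72 FPKM in HCC827_Er, against 93.3 ± 3.80 FPKM in HCC827. LGALS1, which encodes a galectin that binds sugar chains, stood at 357 ± 16.6 FPKM in HCC827_Er and 734 ± 6.14 FPKM in HCC827 (log2 difference -1.04, and not called with a common sum). MCAM, which was once also named as a mucin but is an adhesion molecule of the immunoglobulin family, fell to 21.9 ± 1.38 FPKM in HCC827_Er, against 311 ± 25.1 FPKM in HCC827.

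Markers of other cell types were read beside these results, where 24.7% of all tested genes were called higher and 19.7% lower. Of the ciliated cell list, 3 of 4 tested genes were called higher, and its 4 genes in the table summed to between 17.03 and 20.98 FPKM in HCC827_Er, against 7.47 to 8.02 FPKM in HCC827. These calls did not all hold: CAPS (0.91) and DNAH5 (0.73) were not called with median-ratio rescaling, nor was DNAH5 without the third HCC827_Er library. Of the basal cell list, 2 of 3 tested genes were called higher, with sums of 80.2 to 86.0 FPKM in HCC827_Er, against 24.6 to 28.0 FPKM in HCC827. Of the leukocyte list, 4 of 5 were called higher, with sums of 131 to 144 FPKM in HCC827_Er, against 173 to 179 FPKM in HCC827. Most of that sum was CD68, which was not called, at 117 ± 4.36 FPKM in HCC827_Er and 174 ± 3.10 FPKM in HCC827. The 4 called genes reached 1 FPKM in HCC827_Er alone and had to differ to be tested, as did PIFO and TP63 of the lists above. With a pseudocount of 5 the leukocyte count was 1, and with the minimum in all 6 libraries it was 0. ITGAM, below the minimum, stood at 0.187 ± 0.0462 FPKM in HCC827_Er, against 0.897 ± 0.282 FPKM in HCC827. Of the fibroblast and endothelial list, 1 of 3 was called higher, with sums of 16.2 to 18.8 FPKM in HCC827_Er, against 10.9 to 12.5 FPKM in HCC827. In that list 1 gene was called lower without the first HCC827_Er library or without the third HCC827 library, against 0 with all libraries. The count was also 1 with median-ratio or quantile rescaling and with a pseudocount of 0.1. The defining markers FOXJ1, KRT5, PTPRC and PECAM1 were not analysed here, and in the last list COL3A1 was listed at 0 in all HCC827_Er libraries and CDH5 in all HCC827 libraries. The part of such cells in the mucin results was not tested.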

How the data were processed

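Total RNA of 6 libraries, 3 of HCC827_Er and 3 of HCC827, was made into libraries with Illumina TruSeq reagents and sequenced, per the labels. The authors deposited FPKM per gene and library, with Ensembl identifiers and no counts. Per the submitters' processing notes the tools were fastp, HISAT2 and StringTie, with GRCh38.p14 and hg19 named as builds without their roles; the sources used here give no versions, annotation, strandedness or criterion for listing a gene. Symbols matched for 6636 of 6641 identifiers. Positions and transcripts came from GENCODE 29 (GRCh38), promoters from RefSeq (GRCh38.p14).

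FPKM was transformed to log2(FPKM + 1). Genes with at least 1 FPKM in 3 or more of 6 libraries (5276) were fitted with the line as the only term in limma 3.58.1 under R 4.3.3 (eBayes with trend), with Benjamini-Hochberg adjustment over all of them. Genes were called when the adjusted p was under 0.05 and the lines differed by at least 1 on the log2 scale. The fit was tested on simulated data in which few genes were changed, none of them at a low level in HCC827. That setting differs from these data and does not cover genes such as MUC5B, MUC4 and MUC21. Exact permutation tests of 3 against 3 libraries cannot go below p = 0.10. Any pair of libraries of 1 line had at most 317 genes at identical values.

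The members, gene lists and tests were chosen with earlier results of these data known. Named genes were the 8 mucins, up to 4 called genes with the largest differences per list (of lists with none called, up to 2 abundant ones), the 2 genes nearest to each mucin in level, and the nearest listed gene on each side within 500 kb; others are marked where they appear. Some genes that this rule names are not reported here. Tried as alternatives were a pseudocount of 0.1 or 5, no minimum or a minimum in all 6 libraries, 3 rescalings, robust limma, a replicate block and omission of each library in turn.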

Additional observations from a re-analysis of the deposited data

How the results depend on the processing

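The 6 mucin genes called higher and the 1 called lower were the counts without any 1 library, with the replicate number as a block, and with median-ratio, sum or quantile rescaling. With a minimum of 1 FPKM in all 6 libraries, MUC1, MUC13 and MUC16 were the mucins left, of which 2 were called higher and 0 lower, by construction of the filter. The table then gave 753 genes called higher and 650 lower, and the pathway lists 18 higher. With a pseudocount of 5, 0 mucins were called lower, and 579 genes were higher and 506 lower over the table, because a larger pseudocount shrinks the differences of low genes. With median-ratio rescaling 1657 genes were called lower over the table and 23 in the pathway lists. The log2 difference of MUC5B ranged from 3.43 to 7.78 over 14 alternatives, with the extremes at pseudocounts of 5 and 0.1, and that of MUC1 from 1.62 to 2.21 over 15. The MUC5B share difference was 14.7 to 15.5 percentage points without any 1 library, and 30.0 without MUC1. Same-numbered libraries deviated with correlations of 0.106, -0.0219 and 0.0489, against -0.0901 to 0.0410 between libraries of unlike number. These values do not settle whether the numbers pair the samples. With the replicate block 1304 genes were higher and 1041 lower, as without it. The block cannot change a log2 difference in this balanced design, so these counts do not settle it either. Of 363 alternative values for 25 named genes of the mucin lists, 357 kept direction and call and 6 lost the call, and of 143 values for 10 named cell type markers 132 kept it and 11 lost it. With a pseudocount of 5 the calls lost in the mucin lists included ST6GALNAC5 (0.93), RAB27B (0.84) and SYTL4 (0.84). Counting error could not be assessed because the files give no depth, and levels near 0 FPKM are the least certain.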
